A study of Mus musculus with 4 samples.

Results

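Cycling myoblasts that carried Pax7 transcripts and little Myog made up 1107 of 5481 kept cells (20.2%, exact Clopper-Pearson 95% interval 19.1% to 21.3%) in cultures of mouse muscle stem cells sorted for high MyoD reporter signal. They were chosen from their own transcripts. A kept cell was a barcode found in all 4 deposited libraries with a mean of at least 1000 genes and under 10% mitochondrial unique molecular identifiers (UMIs, each marking 1 captured molecule). From UMIs summed over the 4 libraries, a cell of this class had Malat1 of at least 1000 CPM (counts per 1000000 UMIs of the cell), Mki67 plus Top2a of at least 150 CPM, Myog below 400 CPM and at least 2 Pax7 UMIs. Because these 5 genes chose the cells, their values are given as a description only.

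The study profiled skeletal muscle stem cells of MyoD-KI mice, in which the red fluorescent protein tdTomato reports expression of MyoD, after 5 days of culture in a serum-rich growth medium. Cells were sorted by flow cytometry and the MyoD-tdTomato high population was loaded for droplet single-cell RNA sequencing with 10x Genomics 3-prime chemistry. All 4 samples carry this 1 genotype, gate and treatment, so every comparison here is between classes of cells within 1 set. The labels do not say how many animals were used, whether they were pooled, or what age or sex they were. Cells of the low gate were not analysed here, and every cell had passed a gate on a reporter placed at the Myod1 locus.

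Pax7 is the paired-box transcription factor of muscle stem cells, or satellite cells, which lie quiescent beside muscle fibres and divide after injury or in culture. Their dividing progeny, the myoblasts, switch on Myod1 and then Myog, and Myog precedes exit from the cell cycle, fusion and sarcomere assembly. D-type cyclins carry a cell from G1 towards DNA replication (S phase), mitotic genes follow in G2 and M, and inhibitors of cyclin-dependent kinases oppose both steps. Notch signalling is known to favour the stem state over differentiation in this lineage.

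The 4 libraries were repeat libraries of 1 set of cells. They held 5950 to 5974 barcodes each, and every pair shared 99.9% of the smaller library's barcodes (5944 in all 4). The same barcode in 2 libraries correlated across genes at a median Pearson r of 0.796 to 0.802, against 0.673 to 0.677 for different barcodes. The libraries therefore counted as 1 sample, with 61857766 to 68034040 UMIs in kept cells. No p-value was computed. Levels are CPM of UMIs summed over the cells of a class, averaged over the libraries. Intervals are 95% intervals at the mean count of 1 library (exact Poisson for levels, Clopper-Pearson for shares, conditional binomial for log2 ratios), and they cover counting error only.

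The cells of the class were deep. Per library, the median cell showed 13531 UMIs, 3912 genes and 3.29% mitochondrial UMIs. Pax7 summed to a median of 6 UMIs per cell (2 to 51), a median of 110 CPM (19.9 to 774). A molecule can be counted in more than 1 library, so a sum of 2 UMIs can come from 1 molecule. Mki67 plus Top2a had a median of 847 CPM (151 to 3898), and Myog one of 51.3 CPM (0 to 396), with 119 cells at 0 Myog UMIs. Just inside the thresholds lay 149 cells with 2 Pax7 UMIs, 42 cells with Mki67 plus Top2a of 150 to 200 CPM and 35 cells with Myog of 300 to 400 CPM. Just outside lay 142 cells with 1 Pax7 UMI, 67 cells at 100 to 150 CPM of Mki67 plus Top2a, and 22 cells with Myog of 400 to 500 CPM that passed the rest of the rule. Another 64 cells were short only of the Malat1 minimum, and 229 cells exceeded only the Myog limit.

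The name of the class was checked against markers that the rule did not use. Myf5 (a myogenic factor of early myoblasts), Sdc4 and Vcam1 were at 88.7, 69.9 and 29.1 CPM. Cd34 and Calcr, markers of resting satellite cells, were at 0.380 and 0.470 CPM. The myoblast markers Myod1, Des (the muscle intermediate filament) and Cdh15 were at 326, 724 and 75.6 CPM. After each cell was thinned to 5000 UMIs per library, which left out 16 of the 1107 cells, 64.8% had a Myod1 UMI (82.0% unthinned), 32.7% a Myf5 UMI (58.6% unthinned) and 45.7% a Pax7 UMI (79.1% unthinned). In 1722 non-cycling cells with Myog of at least 2000 CPM (median 10935 UMIs, 56 left out by thinning), which should lack Pax7, 1.996% had a Pax7 UMI and 4.04% a Myf5 UMI at the same depth (4.62% and 7.77% unthinned), while 91.3% had a Myod1 UMI (98.2% unthinned).

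Markers of endothelial, immune and Schwann cells were low, and some markers of fibroblasts, pericytes and tendon were not. The summed level was 2.35 CPM for the 5 endothelial markers (1.76 to 2.57 over the libraries, 1 of them at 0), 1.34 CPM for the 5 immune markers (1.13 to 1.85, 2 at 0) and 2.12 CPM for the 4 Schwann cell markers (1.94 to 2.28, none at 0). The 7 fibroblast markers summed to 200.4 CPM, nearly all from Col3a1 (146 CPM) and Ly6a (47.7 CPM), with 4 of the 7 below 1 CPM, Pdgfra at 0.932 CPM and Col1a1 at 0.399 CPM among them. The 5 pericyte markers summed to 128 CPM, of which Notch3 gave 95.4 CPM. In all other kept cells Col3a1, Ly6a and Notch3 were at 99.3, 23.9 and 36.0 CPM. Of the 3 tendon markers, which summed to 61.7 CPM, Scx gave 57.1 CPM, against 61.1 CPM in the non-cycling and 54.1 CPM in the Pax7-low cells described next.

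Comparison classes came from the same kept cells. Non-cycling Pax7-positive Myog-low cells passed every other part of the rule but had Mki67 plus Top2a below 150 CPM (694 cells, median 9394 UMIs per library). Cycling Pax7-low cells passed every other part but had 0 or 1 Pax7 UMI (249 cells, median 10656 UMIs). Cycling Myog-expressing cells passed the Malat1 and cycling limits with Myog of at least 400 CPM and any Pax7 count (575 cells, median 13397 UMIs). All other kept cells numbered 4374 (median 10582 UMIs). A gene was called where its log2 ratio of CPM plus 1 reached a 2-fold difference, among 9789 genes with at least 5 CPM over all kept cells and without the 5 genes of the rule.

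The question of the first comparison was what accompanied Mki67 and Top2a transcripts among cells that all carried Pax7 and little Myog. Of 9789 genes, 694 were called (7.09%), with 508 higher (5.19%) and 186 lower (1.9%) in the cycling cells, and the median ratio of all tested genes was -0.02. Mki67 and Top2a chose both sides, so counts of replication and mitosis genes describe that choice. Of 43 S-phase genes, 40 were called higher (median log2 ratio 1.76), and of 52 G2/M genes without Mki67 and Top2a, 49 were called higher (median 2.94). None of either list was called lower. Depth differed too, since the cycling cells had a median of 13531 UMIs against 9394, and its part in the ratios was not tested beyond cells of 8000 to 20000 UMIs, in which 628 of the 694 genes were called again in the same direction.

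Among mitotic genes, Aurkb, the kinase of the chromosomal passenger complex, stood at 83.4, 85.3, 82.9 and 86.9 CPM in the 4 libraries of the cycling cells and at 1.71, 2.12, 2.46 and 1.55 CPM in those of the non-cycling cells. The values did not overlap, and the log2 ratio was 4.85 (4.30 to 5.38). Kif11, the kinesin that pushes spindle poles apart, was at 143 against 4.16 CPM (log2 ratio 4.80, 4.36 to 5.25). The other genes at the top serve spindles or chromosomes: Aspm (a spindle-pole protein, 4.63), Nusap1 and Prc1 (microtubule bundling, 4.50 and 4.46), Kif14 (a kinesin of cytokinesis, 29.1 CPM against 0.330 CPM, which is below the 0.437 CPM that 3 counts would give) and Esco2 (a cohesin acetyltransferase of S phase, 4.84). The replication-dependent histone Hist1h1b led the ranking at 851 against 24.1 CPM (5.08, 4.87 to 5.30), and Hist1h2ap and Hist1h2ab followed at 4.53 and 4.48. Histone genes have near-identical copies and mostly unpolyadenylated transcripts, so how their reads were assigned is uncertain.

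The promoters of the mitotic genes are shown because these genes moved together. Windows from RefSeq (GRCm38.p6, 250 bases before to 50 after a start) were found for 45 of the 52 G2/M genes (50 windows). The letters CCAAT, on either strand, occurred in 74% of those windows and in 37.4% of all 32851 windows of the same length. The letters TTTGAA or TTCGAA, on either strand, occurred in 72% of G2/M windows, 17.6% of 34 S-phase windows and 19.2% of all windows, and both motifs in 58%, 11.8% and 7.52%. CCAAT was also in 67.6% of the S-phase windows. The 4 sequences below are the 250 bases before the start of G2/M genes, in the strand of the gene, 5′ to 3′. These genes were picked by largest ratio among those whose upstream bases held both motifs. Genes of a single chromosome were left out of this choice, so the 4 need not be those with the largest ratios. Capitals mark CCAAT or its reverse complement ATTGG. They also mark TTTGAA or its reverse complement TTCAAA. They lie at chr19:37376132-37376381 (plus strand, Kif11), chr3:27153879-27154128 (minus strand, Ect2), chr2:129297213-129297462 (minus strand, Ckap2l) and chr8:57511593-57511842 (plus strand, Hmgb2). Their genes ranked 2, 10, 15 and 19 among the 52 by ratio, at 4.80, 4.15, 3.61 and 3.45. A match of letters describes the sequence and is not a measured binding site.
Kif11: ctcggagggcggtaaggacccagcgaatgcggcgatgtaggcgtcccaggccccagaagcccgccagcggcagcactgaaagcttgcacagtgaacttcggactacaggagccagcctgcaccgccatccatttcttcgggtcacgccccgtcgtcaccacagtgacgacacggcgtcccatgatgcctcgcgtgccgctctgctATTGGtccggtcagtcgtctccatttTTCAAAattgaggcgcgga
Ect2: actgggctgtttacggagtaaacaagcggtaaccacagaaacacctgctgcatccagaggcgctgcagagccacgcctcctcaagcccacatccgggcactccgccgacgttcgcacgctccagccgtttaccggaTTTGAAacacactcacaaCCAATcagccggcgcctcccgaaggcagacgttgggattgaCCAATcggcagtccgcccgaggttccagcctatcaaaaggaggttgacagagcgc
Ckap2l: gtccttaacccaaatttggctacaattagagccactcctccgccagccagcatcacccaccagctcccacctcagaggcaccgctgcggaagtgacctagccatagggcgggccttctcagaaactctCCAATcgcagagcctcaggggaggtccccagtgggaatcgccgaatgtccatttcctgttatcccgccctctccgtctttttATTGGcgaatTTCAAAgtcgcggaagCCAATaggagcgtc
Hmgb2: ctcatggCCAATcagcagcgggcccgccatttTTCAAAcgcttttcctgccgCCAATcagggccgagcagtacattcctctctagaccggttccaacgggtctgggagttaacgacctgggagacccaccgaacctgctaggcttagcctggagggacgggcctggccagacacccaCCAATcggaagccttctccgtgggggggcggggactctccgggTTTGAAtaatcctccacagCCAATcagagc

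The D-type cyclins Ccnd1 and Ccnd2 were not higher in the cycling cells. Ccnd1, the D-type cyclin used here as a marker of the class, was at 296, 299.6, 296 and 298 CPM in the cycling cells and at 353, 365, 346 and 359 CPM in the non-cycling cells. It was lower in the cycling cells in all 4 libraries, without reaching the call (log2 ratio -0.26, -0.33 to -0.19). Other classes stood lower still: 254 CPM in cycling Pax7-low cells, 100.5 CPM in cycling Myog-expressing cells and 130.5 CPM in all other kept cells, and the intervals of these 5 classes did not overlap. At 5000 UMIs, 60.6% of the cycling Pax7-positive cells had a Ccnd1 UMI (79.8% unthinned) against 9.23% of the cells with Myog of at least 2000 CPM (17.0% unthinned).

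Ccnd2, a second D-type cyclin, was called lower. It stood at 22.3, 21.02, 22.3 and 21.8 CPM in the cycling cells and 64.7, 59.8, 60.8 and 56.1 CPM in the non-cycling cells (log2 ratio -1.43, -1.63 to -1.23). Of the 17 tested genes of G1 cyclins and E2F factors, 6 were called higher and 1 lower, with a median ratio of 0.35. Those higher were Ccne2 (47.3 against 13.1 CPM), the kinase Cdk2, the S-phase activator E2f1 (33.6 against 13.7 CPM), the repressor E2f7 (35.3 against 5.76 CPM), the phosphatase Cdc25a and the pocket protein Rbl1. Ccne1, a paralog of Ccne2, was at 46.5 against 22.9 CPM, a log2 ratio of 0.99 (0.75 to 1.24) just under the call. Cdk4 (317 against 248 CPM) and Myc (16.7 against 16.5 CPM) were not called.

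Inhibitors of cyclin-dependent kinases split by family member. Cdkn2d, which binds Cdk4 and Cdk6, was at 94.6, 97.7, 100.8 and 94.5 CPM in the cycling cells. In the non-cycling cells it was at 21.6, 19.4, 24.2 and 20.2 CPM (log2 ratio 2.13, 1.90 to 2.37). Its relative Cdkn2c was at 42.0 against 16.0 CPM (1.33, 1.06 to 1.62). These 2 of 7 inhibitors were called higher and none lower. Cdkn1a, the p53 target p21, was at 274 against 391 CPM (-0.51), and Cdkn2a was at 104 against 151 CPM (-0.53). Cdkn1a separated all Myog-low cells from the rest far more, since it reached 1056 CPM in cycling Myog-expressing cells and 1459 CPM in all other kept cells.

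**Figure D1:**
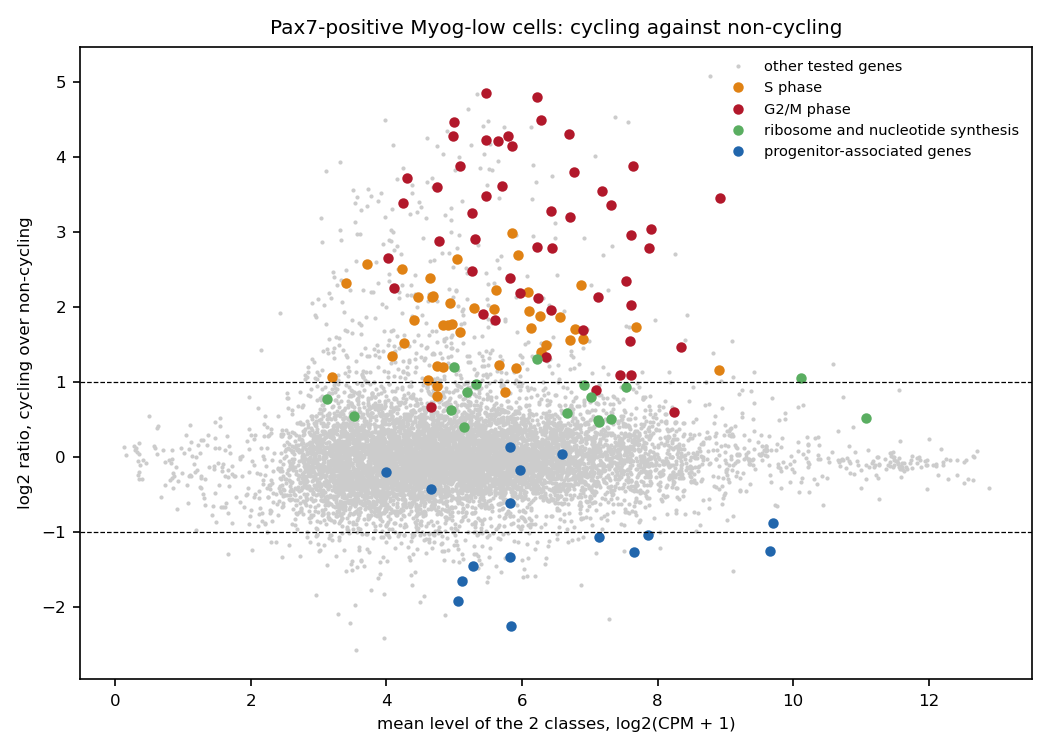
Each point is 1 of 9789 tested genes, with its mean level in both classes on the x axis (log2 of CPM plus 1) and the log2 ratio of cycling over non-cycling Pax7-positive Myog-low cells on the y axis; coloured points are listed genes and dashed lines mark the 2-fold call. S-phase and G2/M genes lie above the upper line in 40 of 43 and 49 of 52 cases, the ribosome and nucleotide synthesis genes all lie above 0, and 9 of 16 progenitor-associated genes lie below the lower line.

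Of 17 genes of ribosome assembly and nucleotide synthesis, 3 were called higher and none lower. All 17 were above 0 (median 0.77), beside 47.5% of all tested genes. The calls were the nucleolar protein Ncl (1497 against 719 CPM, 1.06), the mitochondrial folate enzyme Mthfd2 (106 against 42.2 CPM, 1.30) and Umps of pyrimidine synthesis (43.3 against 18.2 CPM, 1.21). Ncl lost its call at 0.92 in cells of 8000 to 20000 UMIs and at 0.80 where cycling was set at 300 CPM, and at 0.97 with cells chosen on replicates 1 and 2 and measured in 3 and 4. Nolc1, Nop58 and Shmt2 were just under the call at 0.96, 0.94 and 0.98, and the abundant Npm1 was at 2544 against 1764 CPM (0.53).

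Of the listed genes called lower in the cycling cells, 9 came from a list of 16 progenitor-associated genes. This list, which had been picked on these same cells, had 9 called lower, none higher and a median of -1.05, and it is no independent evidence of a direction. Pde7b, a cyclic-AMP phosphodiesterase, was at 18.4, 20.8, 17.4 and 19.2 CPM in the cycling cells and 91.4, 93.9, 94.1 and 95.9 CPM in the non-cycling cells (-2.25, -2.44 to -2.06). Spp1, the secreted protein osteopontin, was at 479 against 1143 CPM (-1.25), and the orphan receptor kinase Ror1 was at 118 against 285 CPM (-1.27). Tgfbr3 (a TGF-beta co-receptor, -1.91), Rnf180 (-1.64), Rcan2 (-1.46), Sulf1 (a heparan sulfatase, -1.34), Arhgap42 (-1.07) and Cdh11 (a mesenchymal cadherin, -1.04) were the others called.

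Beside Pde7b and Tgfbr3, the 10 lowest ratios were those of A230057D06Rik (2.38 against 19.1 CPM, -2.57), Rgs5 (a regulator of G-protein signalling, 3.96 against 25.3 CPM, -2.41), Tcp11l2 (-2.21), the small proteoglycan Ogn (56.2 against 253 CPM, -2.15), the muscle ubiquitin ligase Fbxo32 (9.98 against 46.0 CPM, -2.10), Palmd (-2.08), Phyhd1 (-1.96) and Ypel2 (-1.92). Rgs5 is also a pericyte marker, and the summed pericyte list was 128 CPM in the cycling cells (127 to 131 over libraries) and 166 CPM in the non-cycling cells (160.5 to 169.9). The 7 fibroblast markers summed to 200.4 CPM (198 to 203) against 283 CPM (278 to 290). The part of other cells in these ratios was not tested. Of 15 matrix genes 1 was called lower (Col6a1, 23.1 against 53.5 CPM), with a median of -0.52 and none above 0.

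Stem-cell and differentiation genes stayed within the call in this comparison. None of 14 tested stem and progenitor genes, 14 Notch genes, 14 genes of receptor tyrosine kinase signalling, 16 myogenic regulators or 23 differentiation genes was called, at medians of -0.34, -0.07, -0.17, -0.19 and -0.20. Myf5 was at 88.7 against 116 CPM (-0.38) and Myod1 at 326 against 377 CPM (-0.21). All 14 stem and progenitor genes were below 0. Mgp, a secreted inhibitor of mineralization, was at 587 against 1083 CPM (-0.88, -0.93 to -0.84), and passed the call at -1.02 where the cycling limit was set at 50 CPM.

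**Figure D2:**
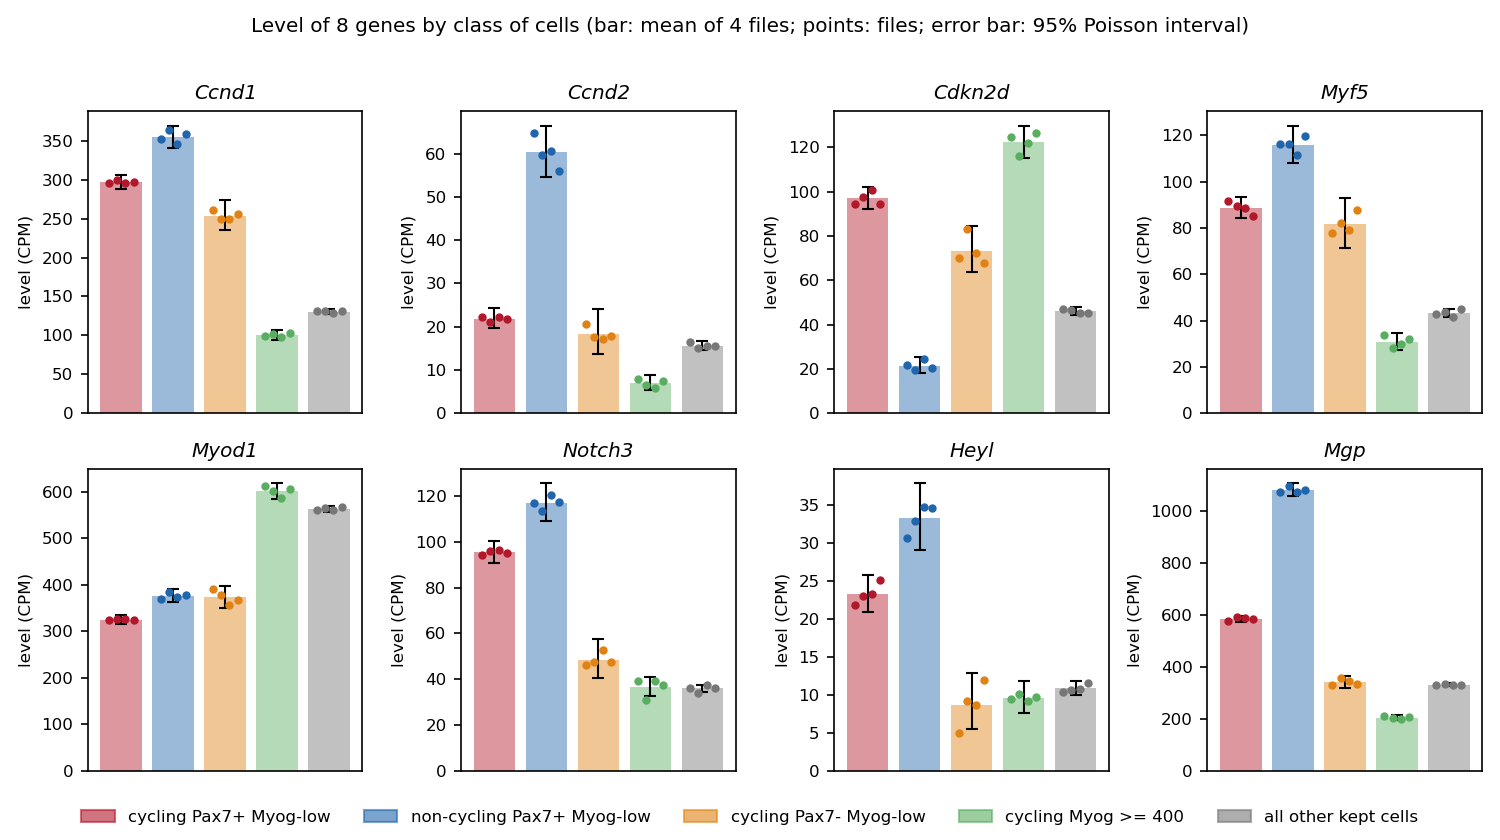
Mean level of 8 genes (CPM, bars from 0) in 5 classes of cells, with 1 point per library and 95% Poisson intervals from counting alone; Pax7- in the legend stands for cells with 0 or 1 Pax7 UMI, and the class of all other kept cells includes the 3 classes drawn before it. Ccnd1 was 297 CPM in cycling Pax7-positive Myog-low cells and 355 CPM in non-cycling ones, while Ccnd2 was 21.8 against 60.4 CPM, and Notch3 and Heyl were higher in both Pax7-positive classes than in the other 3.

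The next comparison set the same cycling and Myog limits for both classes and asked what differed with Pax7. Only 27 of 9789 genes were called (0.276%), 24 higher (0.245%) and 3 lower (0.0306%), with a median of 0.07 over all tested genes. The intervals of 26 of the 27 lay apart from 0, and all 27 had 1 direction in the 4 libraries. In data simulated at the depth of 1 library, 7 unchanged genes were called in this comparison, so part of the 27 can be counting error. The simulation held no variation between cells, and the calls average 4 libraries. It therefore does not gauge how many of the 27 are false. The Pax7-low cells were not devoid of Pax7. With both classes chosen on replicates 1 and 2 alone (at least 1 Pax7 UMI there, against 0), the low class held 44.9 CPM of Pax7 in replicates 3 and 4 (36.7 to 54.1), against 120 CPM in the cycling Pax7-positive cells (115 to 126). Of the 1107 cells, 1010 (91.2%) were chosen again from those 2 replicates, which were also part of the first choice. The counts of called genes were unstable, ranging from 7 with a pseudocount of 5 CPM to 69 with genes of at least 1 CPM, and from 13 to 19 when 1 replicate was left out. With the choice made on replicates 1 and 2 and the ratio measured in 3 and 4, 7 of the 27 were called again and all 27 kept their direction. The 27 had been called on all 4 libraries, replicates 3 and 4 among them, and every library holds the same cells. Their kept direction is therefore no independent check.

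Gucy1a1, the alpha subunit of the nitric oxide receptor guanylate cyclase, had the largest ratio. It was at 15.5, 13.7, 13.8 and 12.5 CPM in the cycling Pax7-positive cells and at 3.20, 1.06, 3.99 and 3.88 CPM in the cycling Pax7-low cells (log2 ratio 1.88, 1.09 to 2.71). The libraries, which hold the same cells, did not overlap, and the call held under every alternative run for it. Its level in replicate 2 of the Pax7-low cells was near the 1.09 CPM that 3 counts would give. Without thinning, 2.51% of the Pax7-low cells had a Gucy1a1 UMI, against 9.35% of the cycling Pax7-positive cells. Dtx4, a Deltex-family ubiquitin ligase linked to Notch, was at 10.1 against 2.35 CPM (1.73, 0.86 to 2.57) and also kept its call in each. It too was near the level of 3 counts in the Pax7-low cells, at 1.17 CPM in replicate 4. Gucy1a1 belongs to the list picked on these cells, whose 16 genes were all above 0 here with a median of 0.43.

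Among Notch genes, Heyl was the 1 call and Notch3 lay just below it. Notch3 was at 94.4, 95.8, 96.3 and 95.2 CPM in the cycling Pax7-positive cells and 46.3, 47.4, 52.6 and 47.4 CPM in the Pax7-low cells. Its log2 ratio of 0.96 (0.71 to 1.23) was just under the call and reached 1.196 in cells of 8000 to 20000 UMIs, 1.03 without the highest 5% of totals and 1.07 with Myog below 100 CPM. Heyl, a transcriptional target of Notch, was called at 23.3 against 8.73 CPM (1.32, 0.78 to 1.91), with 4.98 to 12.0 CPM over the libraries of the Pax7-low cells. The Heyl call was lost at 0.68 without replicate 1, at 0.87 without replicate 2, and at 0.76 and 0.98 with Pax7 of at least 1 and 4 UMIs. Hey1 (15.8 against 8.87 CPM, 0.77), Notch1 (18.3 against 12.7 CPM, 0.49) and Hes1 (86.3 against 67.1 CPM, 0.36) had intervals above 0 and were not called. The ligand Dll1 was at 7.48 against 10.8 CPM, with an interval that spanned 0. Of the 14 tested Notch genes, 1 was called and 11 were above 0 (median 0.24), beside 63.6% of all tested genes above 0. The pericyte list, which holds Notch3 and Pdgfrb, summed to 128 CPM (127 to 131 over the libraries) against 74.8 CPM (71.1 to 78.3) in the Pax7-low cells, and the part of such cells was not tested.

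Receptor tyrosine kinases showed 1 call among 14 tested genes, 13 of which were above 0 (median 0.31). Egfr, the receptor for epidermal growth factor, was at 21.4, 22.6, 20.6 and 23.1 CPM against 9.97, 10.3, 8.70 and 8.55 CPM (1.14, 0.61 to 1.71), and its call was lost in 5 of the alternatives at 0.86 to 0.98. Pdgfrb was at 10.1 against 4.81 CPM (0.93). The other genes at the top were Klhl29 (1.68), 4833422C13Rik (1.51), the kinesin Kif26b (71.1 against 29.8 CPM, 1.22), Tshz2 (43.3 against 18.3 CPM, 1.197), the retinoic acid hydroxylase Cyp26b1 (1.17), the helicase Pif1 (1.17) and the scramblase-family gene Ano3 (1.16). Each of these 7 dropped below the call under at least 1 alternative. None of 15 matrix genes was called, and 14 were above 0 (median 0.38).

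Only 3 genes were called lower with Pax7: the carbonic anhydrases Car3 (32.5 against 74.6 CPM, -1.17) and Car2 (6.04 against 13.4 CPM, -1.03), and Ctrb1 (7.54 against 17.6 CPM, -1.12). With Myog below 100 CPM in both classes no gene was called lower. Car3 turned to 0.73 and Car2 to 0.09 there, and Ctrb1 stood at -0.87. With any 1 replicate left out, Car3 and Car2 lost their calls, at -0.83 to -0.91 and -0.64 to -0.999. Ctrb1 lost its call without replicate 4 (-0.80) and with Pax7 of at least 1 UMI (-0.37). Car2 and Car3 are similar in sequence, so reads could have been split between them. The next lowest were Chil1, Tm6sf1, Traf3ip3, R3hdml and Ramp3, all under 12 CPM in either class, and the muscle genes Pdlim3 (22.3 against 41.0 CPM, -0.85) and Trdn (20.4 against 37.5 CPM, -0.84). Of 23 differentiation genes none was called and 3 were above 0 (median -0.27). Myf5 (88.7 against 81.6 CPM) and Vcam1 (29.1 against 28.0 CPM) had intervals of the ratio that spanned 0, from -0.08 to 0.33 and from -0.28 to 0.42.

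Phase, depth, gene length and levels of the rule's own genes moved with this contrast. Median Myog was 51.3 CPM in the Pax7-positive and 73.5 CPM in the Pax7-low cells. Mki67 plus Top2a had medians of 847 against 481 CPM, and Malat1 of 6027 against 3816 CPM. None of the 43 S-phase genes was called and 9 were above 0 (median -0.13), while 51 of 52 G2/M genes were above 0 (median 0.37) and none was called. The Pax7-positive cells were deeper (13531 against 10656 UMIs). The 24 genes higher with Pax7 had a median gene span of 214 kb against 26.9 kb for all tested genes, and the 2447 tested genes with the longest spans had a median ratio of 0.21 against -0.04 in the 2446 with the shortest. The part of depth, phase, span and the levels of Myog, Mki67 plus Top2a and Malat1 in the calls was not tested beyond the alternative thresholds and depth range. With each class cut into 3 equal groups by its own ratio of G2/M to S transcripts, Notch3 was at 69.7 CPM in Pax7-positive and 42.5 CPM in Pax7-low cells of the lowest group. In the highest group it was at 134 and 65.7 CPM. These groups were not matched between the classes: the median G2/M list level was 5509 against 4909 CPM in the lowest and 12511 against 10724 CPM in the highest, and depth in the highest was 12690 against 8870 UMIs.

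Set against all other kept cells, the cycling Pax7-positive cells held far fewer differentiation transcripts. Of 9789 genes, 1385 were called (14.1%), 805 higher (8.22%) and 580 lower (5.93%). The median of all tested genes was 0.18, and centred on that median the split was 538 higher and 703 lower. Because low Myog was part of the rule, the loss of its followers describes the choice. Of 23 differentiation genes 22 were called lower (median -4.24), Des being short of the call at -0.85 (-1.03 when centred). Myh1 and Myh3, myosin heavy chains, were at 9.29 against 570 CPM (-5.80) and 17.9 against 852 CPM (-5.49), and Actc1 was at 35.2 against 1647 CPM (-5.51). Actc1 and Acta1, and the Myh genes among themselves, have close paralogs between which reads could be split. The remaining genes at the bottom also belong to muscle or to its late programme: Smpx, Myl1, Myl4, Lmod2, Csrp3, Filip1 and Arpp21, each at 25.3 CPM or less in the cycling Pax7-positive cells.

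Several stem and progenitor genes lay close to the call here. Of 14 stem and progenitor genes 5 were called higher: Pax3 (10.9 against 4.92 CPM), Myf5 (88.7 against 43.3 CPM, 1.02), Vcam1 (1.09), the hepatocyte growth factor receptor Met (81.5 against 37.1 CPM, 1.11) and Heyl (1.04). Centred on the median of all genes, Myf5, Vcam1, Met and Heyl lay at 0.84, 0.90, 0.93 and 0.85, under the call. Pax3 was not among the genes recomputed in that way, so its call was not checked there. Cd82 was called lower, and the list median was 0.01. In the Notch list Notch3 (95.4 against 36.0 CPM, 1.38), Hes1 (86.3 against 32.6 CPM, 1.38), Hey1 and Heyl were called higher, and the ligand Dll1 (-1.49) and Hes6 (375 against 937 CPM, -1.32), which opposes Hes1, were called lower. Myod1 was at 326 against 564 CPM (-0.79) and did not reach the call.

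The inhibitors Cdkn1a (274 against 1459 CPM, -2.41) and Cdkn1c (6.07 against 101 CPM, -3.85), which accompany cell cycle exit in myogenesis, were called lower, and Cdkn2d was called higher. The top of the ranking against all other kept cells again held histone and mitotic genes: Hist1h1b (2.41), the DNA glycosylase Neil3 (2.37), Hist1h1a, the kinase Mastl, Hist1h2ab, Hist2h2ac, the kinesins Kif18b, Kif20b and Kif18a, and Rad51b of DNA repair. The 43 S-phase and 52 G2/M genes had 41 and 45 called higher and none lower.

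Position along the cell cycle differed among the cycling classes. The median cell held 3771 CPM of S-list transcripts (interquartile range 2677 to 5095) and 8606 CPM of G2/M-list transcripts (6004 to 11796), without Mki67 and Top2a. The same medians were 4147 and 7008 CPM in cycling Pax7-low cells, 2548 and 8997 CPM in cycling Myog-expressing cells, and 761 and 1288 CPM in the non-cycling Pax7-positive cells. The median log2 ratio of G2/M to S was 1.30 in the cycling Pax7-positive cells, 0.79 in Pax7-low cells and 1.85 in the Myog-expressing cells. Mki67 and Top2a are known to peak late in the cycle, and their sum was part of the rule.

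**Figure D3:**
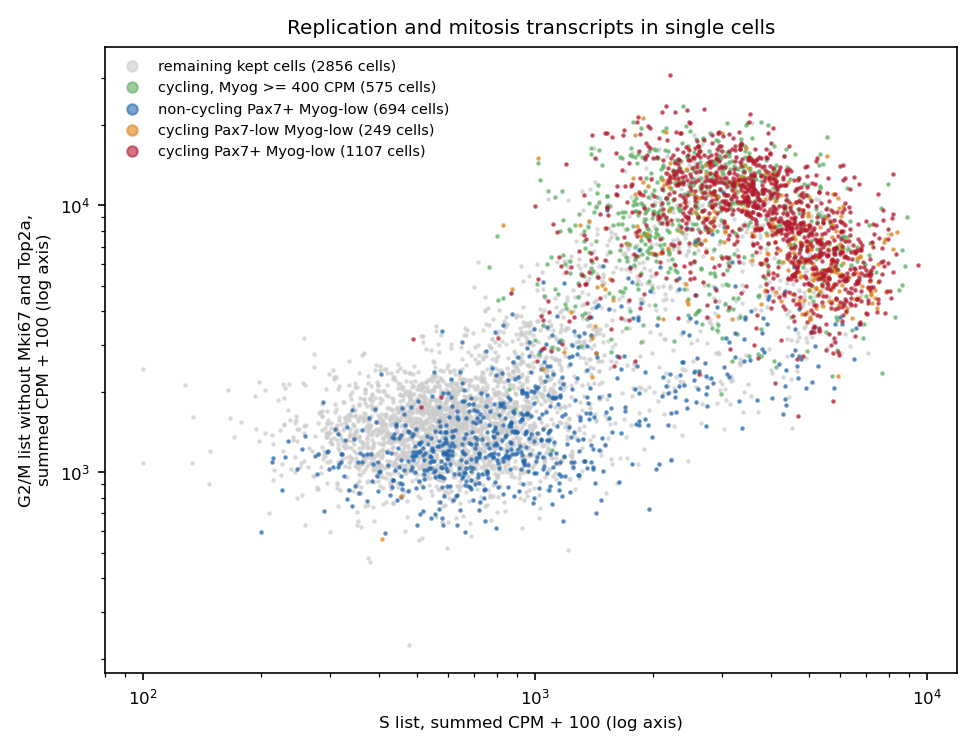
Each point is 1 kept cell, with summed CPM of the S list on the x axis and of the G2/M list without Mki67 and Top2a on the y axis, both plus 100 CPM on log axes. The cycling Pax7-positive Myog-low cells (red, 1107 cells) form an arc around medians of 3771 and 8606 CPM, above the 694 non-cycling Pax7-positive cells (blue) at 761 and 1288 CPM.

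Within the class, cells were split into 3 groups of 369 by the ratio of G2/M to S transcripts (S-rich, intermediate and G2/M-rich), and genes outside those lists were compared between the G2/M-rich and the S-rich group. Of 9696 genes 232 were called (2.39%), 128 higher and 104 lower in the G2/M-rich group. Ccne1 ran 87.5, 38.1 and 13.8 CPM from the S-rich to the G2/M-rich group (log2 ratio -2.58), and the histone Hist1h1a ran 121, 72.8 and 18.2 CPM (-2.67). E2f1 (-1.53), E2f7 (-1.33), Cdc25a (-1.09) and Umps (-1.22) were also called lower in the G2/M-rich group. In the other direction Pif1 ran 1.55, 13.9 and 30.2 CPM (3.62), Aspm 15.7, 57.9 and 138 CPM (3.06), and Kif14 and Prc1 were called at 1.97 and 1.89.

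Of the inhibitors, Cdkn2d, Cdkn2c and Cdkn1b were called higher in the G2/M-rich group. Cdkn2d ran 47.8, 107 and 137 CPM over the 3 groups (1.495, 1.29 to 1.71), Cdkn2c 27.9, 40.6 and 58.0 CPM (1.03), and Cdkn1b, or p27, 25.7, 38.0 and 55.4 CPM (1.08). Cdkn1a was not called, at 253, 268 and 302 CPM (0.26). Notch3 ran 69.7, 84.8 and 134 CPM (0.93, 0.75 to 1.12), Heyl 17.8, 19.4 and 33.4 CPM (0.87) and Mgp 467, 463 and 849 CPM (0.86), none of which reached the call. Among cycling Myog-expressing cells split in the same way Mgp went the other way, from 270.3 to 154.5 CPM (-0.80), and Notch3 from 38.1 to 29.4 CPM (-0.36, -0.78 to 0.05). Median Myog also rose between those outer groups, from 1405 to 2315 CPM. In the outer groups of the Pax7-positive cells it was 50.5 and 49.4 CPM. The part of Myog in this difference was not tested. Ccnd1 was at 317, 324 and 247 CPM over the groups of the Pax7-positive cells (-0.36), and Myf5 at 80.8, 93.7 and 91.1 CPM. Median depth was 13421, 14371 and 12690 UMIs over these groups.

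Pax7 itself varied within the class, and bands of Pax7 UMIs were described for other genes. Bands of 2 to 3, 4 to 7 and 8 or more UMIs held 278, 442 and 387 cells, with median totals of 12345, 12786 and 15441 UMIs per library, and a count of UMIs depends on that total. Of 9793 genes 30 were called between the outer bands (0.306%), 29 higher and 1 lower in the highest. Gucy1a1 ran 4.76, 11.9 and 20.8 CPM (log2 ratio 1.92, 1.28 to 2.60), Dtx4 5.25, 8.59 and 14.3 CPM (1.29), Kif26b 42.4, 57.7 and 99.6 CPM (1.21) and Notch3 59.5, 78.7 and 131 CPM (1.13, 0.91 to 1.35). Pdgfrb ran 5.31, 9.96 and 12.8 CPM (1.13). Egfr at 14.8, 18.2 and 29.4 CPM (0.94) and Heyl at 15.4, 22.0 and 29.0 CPM (0.87) stayed under the call.

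Several other genes were lower in the highest Pax7 band with intervals below 0, without reaching the call. Myod1 was at 366, 348 and 282 CPM (-0.38, -0.48 to -0.27), Hes6 at 440, 381 and 335 CPM (-0.39), Pdlim3 at 27.8, 24.6 and 17.0 CPM (-0.68) and Ctrb1 at 12.0, 6.54 and 6.06 CPM (-0.88). Myf5 was at 88.0, 83.8 and 93.6 CPM and Ccnd1 at 285, 305 and 296 CPM, with intervals of the ratio that spanned 0. The mitotic gene Prc1 was at 267, 331 and 444 CPM over the same bands (0.73), and the median G2/M list level was 7676, 8271 and 9844 CPM against S-list medians of 4228, 3873 and 3496 CPM. Cycle position and depth thus moved with Pax7, and their part in the ratios of Gucy1a1, Notch3 and the others was not tested.

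**Figure D4:**
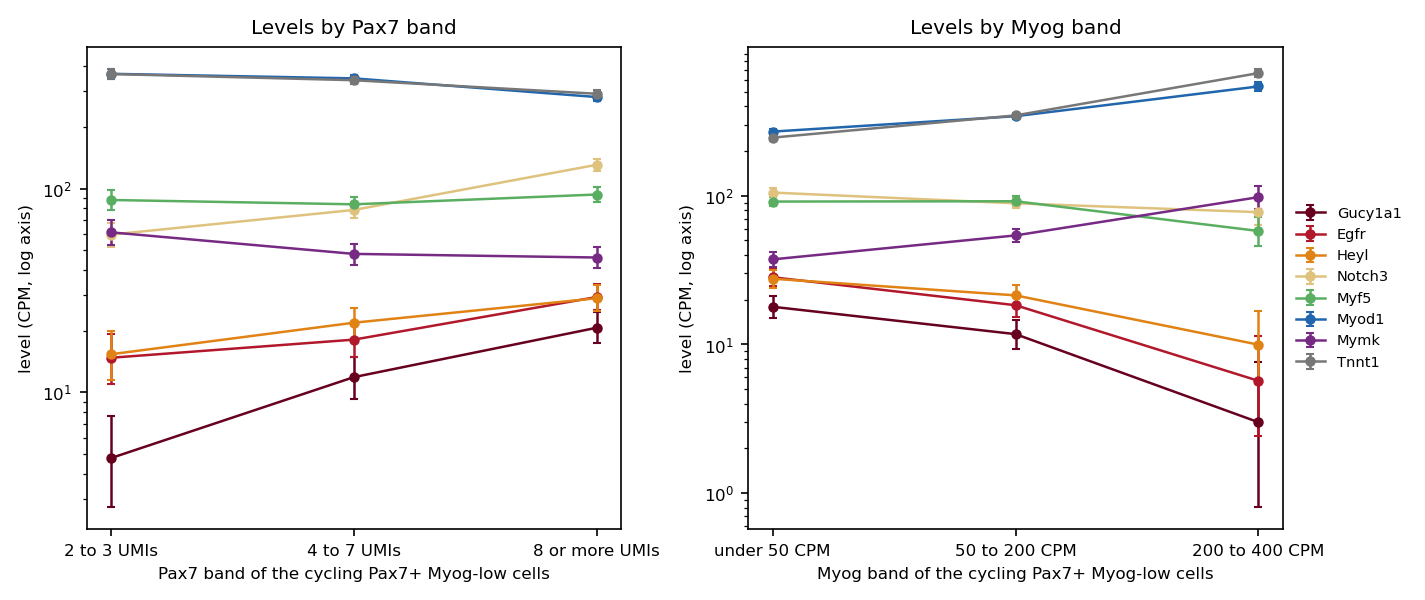
Levels of 8 genes (CPM, log axis) over 3 bands of Pax7 UMIs (left) and 3 bands of Myog CPM (right) within the cycling Pax7-positive Myog-low cells; points are means of 4 libraries and bars are 95% Poisson intervals. Gucy1a1, Egfr, Heyl and Notch3 are higher with Pax7 and lower with Myog, Myod1 and Tnnt1 go the other way, and the highest Myog band holds 85 cells and has the widest intervals.

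Myog below the limit also marked differences inside the class. Cells with Myog under 50, 50 to 200 and 200 to 400 CPM numbered 538, 484 and 85, with median totals of 13043, 13954 and 14716 UMIs. Of 9793 genes 254 were called between the outer bands (2.59%), 153 higher and 101 lower in the highest band. Myod1 ran 269.6, 342 and 543 CPM (1.01, 0.88 to 1.13), the troponin Tnnt1 246, 347 and 667 CPM (1.44), and the fusion proteins Mymk 37.3, 54.1 and 97.8 CPM (1.37) and Mymx 4.71, 7.17 and 18.8 CPM (1.80). Pdlim3 ran 10.5, 26.7 and 63.4 CPM (2.49, 2.05 to 2.92), and the Notch ligand Dll1 5.51, 7.56 and 17.9 CPM (1.53).

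Receptor, Notch-target and secreted genes were among those lower in the high Myog band. Gucy1a1 ran 17.9, 11.7 and 3.003 CPM (-2.24, -3.42 to -1.11), Egfr 28.3, 18.4 and 5.70 CPM (-2.13), Heyl 27.7, 21.4 and 9.97 CPM (-1.39), Pdgfrb 12.6, 9.14 and 1.08 CPM (-2.71), Spp1 560, 450.3 and 186 CPM (-1.59) and Mgp 667, 558 and 299 CPM (-1.15). Notch3 was not called, at 105, 88.9 and 77.5 CPM (-0.43). The cycling genes Prc1 and Hist1h1b stayed well under the call over these bands: Prc1 was at 380, 336 and 402 CPM and Hist1h1b at 836, 885 and 753 CPM. Ccnd1 was at 306, 303 and 217 CPM (-0.49) and Myf5 at 91.3, 91.8 and 57.9 CPM (-0.65), both under the call. The band of 200 to 400 CPM adjoins the Myog limit, and its 85 cells carry the widest counting errors of the 3. In that band Pdgfrb (1.08 CPM) and Gucy1a1 (3.003 CPM) rest on few UMIs per library, Pdgfrb on fewer than the floor of 3 counts.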

How the data were processed

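Droplet single-cell RNA libraries of 4 samples of 1 group were used. Per the file headers, the deposited UMI counts, not normalized, came from Cell Ranger 7.1.0, whereas the submitters' processing notes name Cell Ranger 3.1.0 and the builds mm10 and GRCm39; which applies to these counts, and whether intronic reads were counted, is not given in the sources used here. Of 32285 gene identifiers 32158 (99.6%) were found in GENCODE M21 on GRCm38.

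The 4 libraries share barcodes and profiles, so they counted as 1 sample and no p-value was computed. Each value was computed per library and averaged, because summed libraries would count some molecules repeatedly: count differences between libraries were 13.4% to 14.5% below those of independent draws. Counts were summed over the cells of a class, scaled to CPM and compared as log2 of CPM plus 1. Genes of at least 5 CPM over kept cells were tested, and a 2-fold difference was a call. A count of 3 was the floor. No doublet caller was run and no cell was removed as a doublet; an alternative left out the highest 5% of totals, which held 100 cells of the class. Shares of cells with a gene used 5000 UMIs per cell and library. The calls were tested on data simulated at the mean depth of 1 library. In the comparison with cycling Pax7-low cells, the smallest class simulated, 7 genes simulated as unchanged were called, and none in the other comparisons. The simulation held counting error alone, and the bands within the class were not simulated. Part of the calls there can thus be counting error.

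The genes named are the 10 highest and 10 lowest ratios of each comparison that had 1 direction in all libraries, and genes of lists on cycling, inhibitors, stem cells, Notch, receptor kinases, matrix, differentiation, ribosome and nucleotide synthesis. The cells and the lists were chosen with earlier results of these data known. A list of immediate early genes (7 tested) had 0 called in any comparison. Alternatives changed the pseudocount, filter, scaling, depth range, thresholds of the class and libraries. Python 3.11.15, numpy 2.4.6, scipy 1.17.1, pandas 2.3.3 and matplotlib 3.10.9 were used.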

Additional observations from a re-analysis of the deposited data

Results flagged for a closer look

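In 4 of 101 values examined (3.96%, where chance gives about 5%), 1 library lay far from the other 3. Nusap1 in cycling over non-cycling Pax7-positive cells had a log2 ratio of 5.02 in replicate 2 and 4.31 to 4.38 in the others. Mgp in the same comparison had -0.86 in replicate 3 and -0.89 in the others. Notch3 in cycling Pax7-positive over Pax7-low cells had 0.86 in replicate 3 and 0.99 to 1.01 in the others. Myh3 against all other kept cells had -5.43 in replicate 1 and -5.52 to -5.51 in the others. Each kept its direction in every library.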

How the results depend on the processing

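The share of kept cells in the class (20.2%) followed its thresholds: 22.8% with Pax7 of at least 1 UMI, 15.1% with at least 4, 23.1% with cycling at 50 CPM, 17.3% at 300 CPM, 15.8% with Myog below 100 CPM, 21.4% with no Malat1 minimum, and 18.3% to 18.7% with 1 replicate left out. At 1.5-fold, 1845, 282 and 3023 genes were called against non-cycling, Pax7-low and all other kept cells, in place of 694, 27 and 1385. The count of 27 moved to 53 and 7 with pseudocounts of 0.1 and 5 CPM, 69 with genes of at least 1 CPM, 47 in cells of 8000 to 20000 UMIs, 63 and 11 with Pax7 of at least 1 and 4 UMIs, 49 with Myog below 100 CPM, and 13 to 19 without 1 replicate. Without thinning, shares with a UMI were 79.1% for Pax7, 58.6% for Myf5, 82.0% for Myod1, 53.6% for Myog, 79.8% for Ccnd1 and 56.5% for Notch3, against 45.7%, 32.7%, 64.8%, 27.3%, 60.6% and 34.6%. Of 1520 recomputed ratios of single genes 1269 moved by less than the error allowed, 249 moved by more and 2 reversed: Car3 at 0.73 and Car2 at 0.092 with Myog below 100 CPM, against Pax7-low cells. The causes were not tested. Leaving out 1 replicate for the shares with a UMI, and recomputing the share of kept cells from replicates 1 and 2 (20.2%), were chosen after seeing the data. Choosing cells on replicates 1 and 2 and measuring in 3 and 4 called 622 of 694, 7 of 27 and 1348 of 1385 genes again, all in the same direction. Those genes had first been called on all 4 libraries of the same cells, so this was no independent check. No paired analysis was possible because there is 1 group, whose replicates hold the same cells. With 1 set of cells, no value carries an error between animals, cultures or sorts, and genes near 5 CPM in the 249 Pax7-low cells rest on few counts.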
